A study of Mus musculus with 6 samples.

Results

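The imprinted genes are a set of 42 mouse genes that are copied into RNA mainly from the maternal or mainly from the paternal chromosome. The set is a list of names of known imprinted genes, and its rule holds no value from the comparison of genotypes. The list was chosen with earlier results of these data known, so the choice was not blind to them. Of the 42 genes, 38 were measured by a probe set that names that gene alone, out of 18193 genes measured that way on the array. Where a gene had several such probe sets, the one with the highest mean over all 6 arrays stood for it. Dio3, Rtl1 and Zrsr1 had no probe set in the annotation used here, and H19 was read only by a probe set that also names the microRNA gene it contains, Mir675.

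Genomic imprinting marks a gene in the egg or the sperm, mostly by DNA methylation at an imprinting control region, so that the offspring uses one parental copy and keeps the other silent. Imprinted genes lie in clusters in which a control region, and often a long non-coding RNA, sets the expression of several neighbours at once. Many of them regulate fetal and placental growth, and several are abundant in embryonic fibroblasts.

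RNA from Atxn3-KO mouse embryonic fibroblasts (MEFs, connective tissue cells grown from mouse embryos), which lack the deubiquitinating enzyme ataxin-3, was hybridised to 3 Affymetrix mouse genome arrays, and RNA from Atxn3-WT MEFs to 3 more. The MEFs came from Atxn3-KO and Atxn3-WT mice. The study used wild-type littermate mice, but does not say whether the MEFs came from littermate embryos. The sources used here give no embryonic age, passage or number of embryos, and call the 3 samples of each genotype biological replicates, so the p-values reflect only how far these 6 samples spread, and that spread may be technical. The array reads total transcript and does not separate maternal from paternal RNA. In such bulk RNA, fewer cells that express a gene and less RNA per cell cannot be told apart.

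The targeted gene differed in the labelled direction. Atxn3 had log2 levels of 3.60, 3.43 and 3.73 in Atxn3-KO MEFs, against 6.53, 6.81 and 6.66 in Atxn3-WT MEFs. A second, dimmer Atxn3 probe set gave a log2 fold change of -0.35 with overlapping groups. It did not pass (adjusted p = 0.117 by limma). The mean level of 10 fibroblast markers was 12.63 to 12.68 on the Atxn3-KO arrays and 12.64 to 12.65 on the Atxn3-WT arrays. Of these 10 markers 2 were higher (Postn by 0.94 and Pdgfrb by 0.25) and 4 were lower (Col3a1, Pdgfra, Col1a2 and S100a4, from -0.28 to -0.19). Among markers of other cell types, the epithelial keratin Krt18 was higher by 1.27 and the neuronal tubulin Tubb3 was lower, with a log2 fold change of -0.95. The mean level of the 6 epithelial markers was 6.24 to 6.31 on Atxn3-KO arrays, against 5.88 to 5.95 on Atxn3-WT arrays. The mean of the 5 measured neural markers was 5.70 to 5.78 on Atxn3-KO arrays, against 5.85 to 6.22 on Atxn3-WT arrays, and its highest value came from the second Atxn3-WT array, where Snap25 was 4.93, against 3.79 and 3.40 on the other Atxn3-WT arrays. Among the other neural markers Sox2 was higher by 0.25 but lay under the 25th percentile on all 6 arrays, and Syt1, Rbfox3 and Snap25 did not pass. The adipocyte marker Fabp4 was higher by 0.61, while Adipoq was under the 25th percentile on all 6 arrays. Of 5 measured trophoblast markers only Gata3 passed, higher by 0.22. The part of these marker shifts in the results on imprinted genes was not tested. Of 14 measured endothelial, macrophage and muscle markers, 0 passed the limma test after adjustment, and 2 macrophage markers had an unadjusted p under 0.05.

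Among the 38 measured imprinted genes, 16 were downregulated and 6 were upregulated in Atxn3-KO MEFs relative to the Atxn3-WT cells at an adjusted p under 0.05. The values are RMA log2 levels, and each log2 fold change is the Atxn3-KO mean minus the Atxn3-WT mean. The p-values came from limma and were adjusted by Benjamini-Hochberg over all 45037 probe sets, because the fit covered the whole array. Downregulated members made up 42.1% of the set, beside 14.7% of all 18193 genes. Upregulated members made up 15.8%, beside 17.1% of all genes. The median log2 fold change was -0.08 over the members and 0.0021 over all genes. The median size of the change, whatever its direction, was 0.22 over the members and 0.11 over all genes. At the stricter thresholds of the study, an adjusted p of at most 0.001 with a change of at least 2-fold, 2 members were lower (Peg3 and Rian) and 0 were higher. Asb4 also passed, as a higher member, with a filter that kept only probe sets at or over the median level, and when eBayes used a trend and robust fit (adjusted p = 0.00042 and 8.21e-06). At those thresholds 0.649% of all genes were lower and 1.28% were higher.

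**Figure D1:**
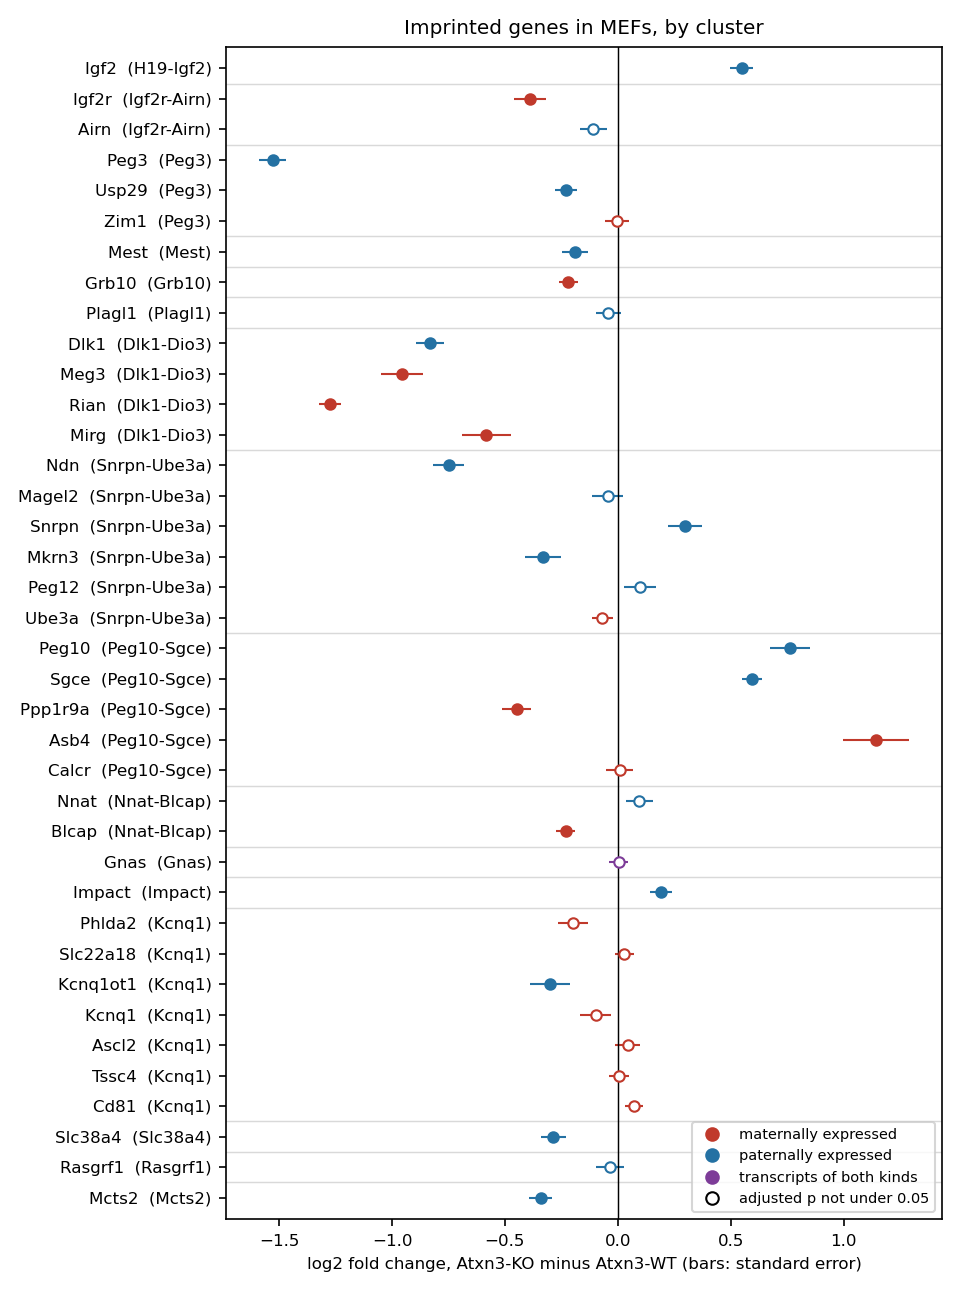
Log2 fold change (Atxn3-KO minus Atxn3-WT, x axis) of each of the 38 measured imprinted genes, listed by cluster, with bars for the standard error from limma (3 arrays per genotype). Filled points passed an adjusted p of 0.05. Colour gives the parental copy assigned as expressed in mouse, which was not measured in these MEFs. The 4 Dlk1-Dio3 genes lie between -1.27 and -0.58, and Peg3 lies at -1.53.

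In the Dlk1-Dio3 cluster all 4 measured genes were downregulated, with a median log2 fold change of -0.89. The cluster holds a paternally expressed protein-coding gene, Dlk1, and a run of maternally expressed non-coding RNAs. Rian, a non-coding RNA that carries many small nucleolar RNAs, had levels of 8.99, 8.89 and 8.99 in Atxn3-KO MEFs, against 10.20, 10.27 and 10.22 in Atxn3-WT MEFs. The genotypes were far apart and the arrays within each genotype nearly level. Rian fell by 1.27 on the log2 scale (SE 0.049, adjusted p = 4.87e-06, limma), so that its level was 2.42 times higher in Atxn3-WT MEFs.

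Meg3, the long non-coding RNA whose promoter region takes part in control of the cluster, had levels of 7.88, 7.86 and 7.87 in Atxn3-KO MEFs. Its levels in Atxn3-WT MEFs were 9.02, 8.84 and 8.63. The 3 Atxn3-KO arrays were almost equal, and all lay below the lowest Atxn3-WT array, with most of the spread on the Atxn3-WT side. The log2 fold change was -0.96 (SE 0.093, adjusted p = 0.000373).

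Dlk1 encodes a membrane protein related to Notch ligands that restrains fat cell differentiation. It had levels of 10.23, 10.18 and 10.05 in Atxn3-KO MEFs, against 10.98, 10.93 and 11.06 in Atxn3-WT MEFs, with no overlap and a log2 fold change of -0.83 (SE 0.062, adjusted p = 0.000112). Mirg, a non-coding RNA that hosts a large group of microRNAs, had levels of 5.45, 5.60 and 5.37 in Atxn3-KO MEFs, against 6.29, 5.92 and 5.96 in Atxn3-WT MEFs. Its arrays spread more than those of the other 3 genes, but the genotypes were separate, and the log2 fold change was -0.58 (SE 0.11, adjusted p = 0.00683). Genes of both parental classes were therefore lower in this cluster, 1 paternally and 3 maternally expressed. Of the cluster's other listed members, Dio3 and Rtl1 were not measured.

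**Figure D2:**
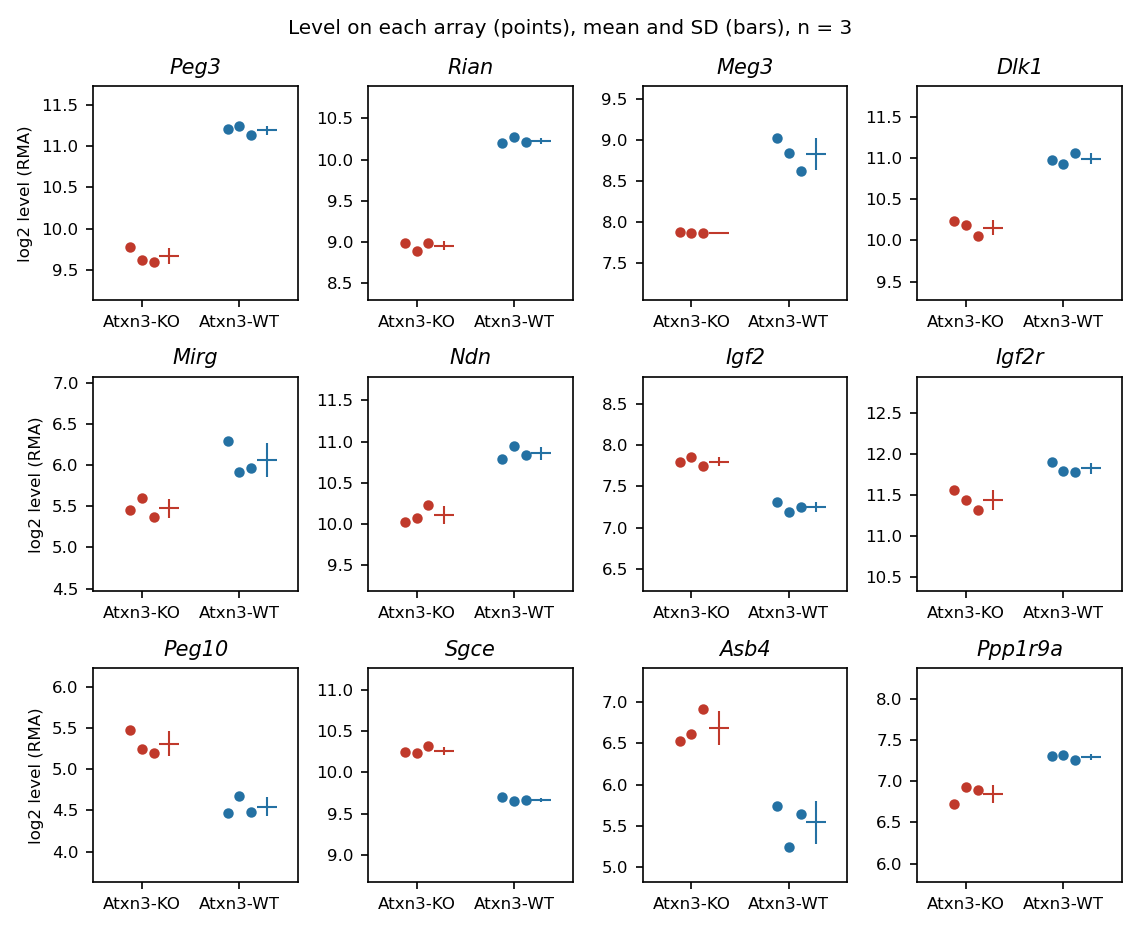
RMA log2 level of 12 imprinted genes on each array (points, Atxn3-KO left, Atxn3-WT right), with the mean and SD of the 3 arrays of each genotype beside them; every panel spans the same log2 range around its own centre. In each of the 12 genes the 3 Atxn3-KO points do not overlap the 3 Atxn3-WT points. All 12 were drawn from the members that passed the limma test, so this is not further support. Nnat, Phlda2 and Cd81, which did not pass, also had groups without overlap, and the share over all genes was not counted. Igf2, Peg10, Sgce and Asb4 are higher in Atxn3-KO MEFs and the other 8 are lower.

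The promoters of Dlk1, Meg3 and Peg3 are shown because the results turn on these genes, and because imprinting proteins recognise short words in DNA. Each window runs from 250 bases before to 50 bases after the first transcription start in RefSeq (build GRCm38.p6, first listed start). Capitals mark TGCCGC, the core word bound by ZFP57 when methylated, and TGACGTCA, the palindrome bound by CREB and ATF proteins, on either strand.
Dlk1: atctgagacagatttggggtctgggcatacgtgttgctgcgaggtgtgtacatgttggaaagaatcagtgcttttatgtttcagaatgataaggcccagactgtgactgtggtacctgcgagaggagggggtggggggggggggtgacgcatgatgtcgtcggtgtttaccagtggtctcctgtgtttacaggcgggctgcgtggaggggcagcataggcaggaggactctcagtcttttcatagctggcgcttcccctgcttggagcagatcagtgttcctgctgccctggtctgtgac
Meg3: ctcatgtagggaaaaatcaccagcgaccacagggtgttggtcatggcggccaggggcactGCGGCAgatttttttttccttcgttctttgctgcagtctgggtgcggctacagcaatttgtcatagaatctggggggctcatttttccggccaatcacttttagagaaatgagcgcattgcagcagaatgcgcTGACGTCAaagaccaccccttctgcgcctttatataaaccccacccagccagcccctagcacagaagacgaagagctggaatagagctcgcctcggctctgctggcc
Peg3: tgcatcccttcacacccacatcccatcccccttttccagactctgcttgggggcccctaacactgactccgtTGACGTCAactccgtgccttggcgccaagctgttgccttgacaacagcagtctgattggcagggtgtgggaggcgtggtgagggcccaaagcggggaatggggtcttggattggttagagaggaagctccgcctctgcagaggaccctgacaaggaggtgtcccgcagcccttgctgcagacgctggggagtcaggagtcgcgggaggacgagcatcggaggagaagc

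The Dlk1 window lies at chr12:109452573-109452872 on the plus strand and the Meg3 window at chr12:109540746-109541045 on the plus strand, and the Peg3 window lies at chr7:6730370-6730669 on the minus strand. They hold 9, 13 and 13 CpG dinucleotides, in that order, beside a median of 7 over all 32851 windows of the RefSeq table. The Meg3 window holds TGCCGC once, read on the opposite strand, and TGACGTCA once. The Peg3 window holds TGACGTCA once, and the Dlk1 window holds neither word. Usp29 starts head to head with Peg3, and the windows of these genes share 263 of 300 bases, so the same TGACGTCA lies in both. TGACGTCA was searched only after these sequences had been read. Over all 32851 windows, 1.79% hold it. Among the 36 members with a window 3 do (Peg3, Usp29 and Meg3), or 8.3%, beside 2.03% of all genes with a window. A match is a match of letters and not a binding site.

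The Peg3 cluster held the member with the largest change, and its genes did not move alike. Peg3, a paternally expressed zinc finger transcription factor, had levels of 9.77, 9.62 and 9.60 in Atxn3-KO MEFs, against 11.20, 11.24 and 11.14 in Atxn3-WT MEFs. The genotypes were separated by more than 1 log2 unit. Peg3 fell by 1.53 (SE 0.061, adjusted p = 5.58e-06), and its level was 2.89 times higher in Atxn3-WT MEFs. Usp29, the paternally expressed ubiquitin protease gene that starts beside it, had levels of 4.30, 4.28 and 4.20 in Atxn3-KO MEFs and 4.53, 4.50 and 4.43 in Atxn3-WT MEFs. These are levels near the bottom of the range: all 3 Atxn3-KO values lay under the 25th percentile of their arrays, 4.36 to 4.38, so the Usp29 log2 fold change of -0.23 (SE 0.05, adjusted p = 0.0137) compares a dim signal with a slightly less dim one. Zim1, the maternally expressed zinc finger gene on the other side, was under that percentile on all 6 arrays and gave -0.0028 (adjusted p = 0.978).

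In the Snrpn-Ube3a cluster, the region of the Prader-Willi and Angelman syndromes in humans, 2 of 6 measured genes were lower and 1 was higher. Ndn, which encodes the growth suppressor necdin, had levels of 10.02, 10.07 and 10.23 in Atxn3-KO MEFs, against 10.79, 10.95 and 10.84 in Atxn3-WT MEFs. The log2 fold change was -0.75 (SE 0.07, adjusted p = 0.000307), and the highest Atxn3-KO array lay well under the lowest Atxn3-WT array. Mkrn3, a makorin ubiquitin ligase, had levels of 6.28, 6.07 and 6.37 in Atxn3-KO MEFs, against 6.61, 6.56 and 6.55 in Atxn3-WT MEFs. Its groups were separate by a narrow margin (log2 fold change -0.33, adjusted p = 0.0185). Without the first Atxn3-WT array the Mkrn3 change no longer passed (adjusted p = 0.064).

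Snrpn, which encodes the spliceosome protein SmN, had levels of 5.57, 5.76 and 5.68 in Atxn3-KO MEFs, against 5.24, 5.45 and 5.44 in Atxn3-WT MEFs (log2 fold change 0.30, adjusted p = 0.0254). This probe set was the only one naming Snrpn alone. The 6 probe sets that name Snrpn together with the overlapping gene Snurf gave log2 fold changes from -0.07 to 0.16, and 0 passed the limma test after adjustment, while 3 had an unadjusted p under 0.05. The Snrpn call was also lost without the second Atxn3-KO array, the third Atxn3-KO array or the first Atxn3-WT array (adjusted p = 0.0815, 0.0653 and 0.063). Ube3a, the ubiquitin ligase that is maternally expressed in neurons, averaged 11.56 ± 0.026 in Atxn3-KO MEFs and 11.63 ± 0.047 in Atxn3-WT MEFs (SD, n = 3 each, log2 levels, adjusted p = 0.329 by limma). Of its 6 probe sets, 2 were lower, down to -0.31. Magel2, a relative of Ndn, gave -0.05 and Peg12 gave 0.10, with adjusted p of 0.696 and 0.382.

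Igf2, the paternally expressed fetal growth factor, was upregulated, and Igf2r, the maternally expressed receptor that takes Igf2 up for degradation, was downregulated. Igf2 had levels of 7.79, 7.86 and 7.75 in Atxn3-KO MEFs, against 7.31, 7.20 and 7.25 in Atxn3-WT MEFs. The levels were tight within each genotype, and the log2 fold change was 0.55 (SE 0.052, adjusted p = 0.000333), or 1.46-fold. Igf2r had levels of 11.56, 11.44 and 11.32 in Atxn3-KO MEFs, against 11.90, 11.80 and 11.77 in Atxn3-WT MEFs, again without overlap, and its log2 fold change was -0.39 (SE 0.071, adjusted p = 0.00645). H19, the maternally expressed non-coding RNA that shares a control region with Igf2, was read by the joint probe set with Mir675. That probe set had levels of 8.38, 8.38 and 8.47 in Atxn3-KO MEFs, against 8.34, 8.10 and 8.32 in Atxn3-WT MEFs. Its log2 fold change of 0.16 did not pass (adjusted p = 0.155), and it is not counted among the 38.

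Airn, the non-coding RNA that overlaps Igf2r in antisense and keeps it silent on the paternal chromosome, gave -0.11 (adjusted p = 0.252) in its brightest probe set. Its 5 probe sets disagreed, with 2 higher, 1 lower and a range from -0.31 to 0.50, so no direction can be given for Airn. Of 14 measured genes of insulin-like growth factor signalling, 7 were lower (50%, beside 14.7% of all genes) and 3 were higher (21.4%, beside 17.1%). Igfbp2 and Igfbp4, secreted proteins that bind the growth factors, had log2 fold changes of -1.46 and -1.20. Igfbp7, a related secreted protein, had a log2 fold change of 0.92, and Igf1, the growth factor closest to Igf2, had -0.83. Grb10, counted in both lists, is a maternally expressed adaptor protein that dampens insulin and growth factor receptors. It had levels of 12.38, 12.37 and 12.33 in Atxn3-KO MEFs, against 12.58, 12.58 and 12.58 in Atxn3-WT MEFs. The difference was small but many times the spread (log2 fold change -0.22, SE 0.041, adjusted p = 0.00678).

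The Peg10-Sgce cluster moved mostly the other way from Dlk1-Dio3, with 3 of its 5 measured genes higher and 1 lower. Asb4, a maternally expressed gene for an ankyrin repeat protein of ubiquitin ligases, had levels of 6.53, 6.61 and 6.92 in Atxn3-KO MEFs, against 5.74, 5.25 and 5.65 in Atxn3-WT MEFs. The arrays of each genotype spread widely, but the groups did not overlap. Its log2 fold change of 1.14 (SE 0.15) was the largest increase among the members, 2.21-fold, and its adjusted p of 0.00135 lay just over the study's threshold. Peg10, a paternally expressed gene derived from a retrotransposon that the mouse placenta needs, had levels of 5.48, 5.25 and 5.20 in Atxn3-KO MEFs, against 4.47, 4.68 and 4.49 in Atxn3-WT MEFs. The Atxn3-WT levels were only slightly over the 25th percentile of the arrays, and the log2 fold change was 0.76 (SE 0.09, adjusted p = 0.000902).

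Sgce, the paternally expressed epsilon-sarcoglycan gene next to Peg10, had levels of 10.24, 10.23 and 10.32 in Atxn3-KO MEFs, against 9.70, 9.65 and 9.66 in Atxn3-WT MEFs. The log2 fold change was 0.59 (SE 0.045, adjusted p = 0.000118). The other Sgce probe set, whose identifier has no suffix for shared transcripts, gave 0.17 and did not pass (adjusted p = 0.205). Ppp1r9a, the maternally expressed gene for the actin-binding protein neurabin, went against its neighbours, with levels of 6.72, 6.93 and 6.89 in Atxn3-KO MEFs and 7.31, 7.32 and 7.26 in Atxn3-WT MEFs (log2 fold change -0.45, adjusted p = 0.00197). Calcr, the calcitonin receptor gene, was under the 25th percentile on all 6 arrays and gave 0.0083 (adjusted p = 0.941).

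Most genes of the Kcnq1 cluster showed little difference. Of its 7 measured genes only Kcnq1ot1, the paternally expressed non-coding RNA that silences the cluster in cis, passed the test. It had levels of 6.55, 6.31 and 6.49 in Atxn3-KO MEFs, against 6.79, 6.86 and 6.61 in Atxn3-WT MEFs, and the groups were narrowly separate (log2 fold change -0.30, adjusted p = 0.0405). The call was lost without the second or the third Atxn3-KO array and without the first or the second Atxn3-WT array (adjusted p = 0.111, 0.0719, 0.115 and 0.116). Phlda2, a maternally expressed brake on placental growth, had separate groups and a log2 fold change of -0.20, which did not pass (adjusted p = 0.0735). Phlda2 did pass without the second Atxn3-WT array (adjusted p = 0.0203), and it did not pass in 12 of 14 alternatives. The other 5 maternally expressed genes, Slc22a18, Kcnq1, Ascl2, Tssc4 and Cd81, gave log2 fold changes from -0.10 to 0.07. Cd81 did not pass in 14 of 15 alternatives, and its lowest adjusted p by limma was 0.0215, as a higher gene.

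Among single genes and small clusters, Mcts2, Slc38a4, Blcap and Mest were lower and Impact was higher. Mcts2, a paternally expressed retrogene, had levels of 9.48, 9.55 and 9.63 in Atxn3-KO MEFs, against 9.87, 9.93 and 9.88 in Atxn3-WT MEFs (log2 fold change -0.34, adjusted p = 0.0028). It is a copy of Mcts1, and probes that read both could not be told apart here. Slc38a4, an amino acid transporter gene, had levels of 10.18, 10.11 and 10.29 in Atxn3-KO MEFs, against 10.47, 10.50 and 10.46 in Atxn3-WT MEFs (log2 fold change -0.29, adjusted p = 0.0092). Its second probe set gave 0.10. Blcap, whose intron holds the imprinted gene Nnat, had levels of 9.35, 9.39 and 9.39 in Atxn3-KO MEFs, against 9.64, 9.59 and 9.60 in Atxn3-WT MEFs (log2 fold change -0.23, adjusted p = 0.00632). All 3 genes had separate groups, but the share of all genes with separate groups was not counted, so this is not further support. Nnat also had separate groups, but gave 0.10 and did not pass (adjusted p = 0.31 by limma).

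Mest, a paternally expressed gene for a hydrolase-like protein, had levels of 9.03, 8.98 and 8.98 in Atxn3-KO MEFs, against 9.13, 9.30 and 9.14 in Atxn3-WT MEFs. Its log2 fold change of -0.19 lay at the edge of the threshold (adjusted p = 0.0496), and leaving out any of the 6 arrays ended the call (adjusted p = 0.0616 to 0.133). Impact, a regulator of the kinase Gcn2, had levels of 9.84, 9.76 and 9.89 in Atxn3-KO MEFs, against 9.65, 9.66 and 9.61 in Atxn3-WT MEFs (log2 fold change 0.19, adjusted p = 0.0255). Its other 2 probe sets did not pass and reached down to -0.26, and when single arrays were left out its call held only without the second Atxn3-KO array (adjusted p = 0.0586 to 0.0837 without any of the other 5). Gnas, which has maternal, paternal and biallelic transcripts, had the same level in both genotypes (13.68 in each, adjusted p = 0.959). Plagl1, a zinc finger gene, gave -0.04 and Rasgrf1, a Ras exchange factor, gave -0.03, with adjusted p of 0.654 and 0.747. Of the other 2 Plagl1 probe sets, 1 was lower (log2 fold change -0.24, adjusted p = 0.0411), and 1 of 5 Gnas probe sets was lower, at -0.28.

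Both parental classes held genes that moved in each direction. Of the 20 paternally expressed genes, 9 were lower (45%) and 5 were higher (25%), with a median log2 fold change of -0.08. Of the 17 maternally expressed genes, 7 were lower (41.2%) and 1 was higher (5.88%), with a median of -0.10. Among all genes 14.7% were lower and 17.1% were higher. The difference between the classes was not tested. The classes are textbook assignments in mouse, and some hold only in certain tissues, as for Ube3a in neurons. Which copy these MEFs use was not measured. The single maternally expressed gene that rose was Asb4. By kind of transcript, 4 of the 5 long non-coding RNAs were lower (Meg3, Rian, Mirg and Kcnq1ot1). The share among all long non-coding RNAs on the array was not counted. Of the 33 protein-coding genes, 12 were lower (36.4%) and 6 were higher (18.2%, near the 17.1% of all genes). As 3 of the 4 non-coding RNAs that fell lie next to each other in Dlk1-Dio3, they do not count as separate loci.

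Most called members kept their direction over all their probe sets that passed. The 38 members were read by 103 probe sets in all, and 23 members had more than 1. Among the 16 called members with several probe sets, 0 had a probe set called in the other direction by limma after adjustment (Ndn, Impact and Slc38a4, 3 members, had 1 at an unadjusted p under 0.05), and 9 had at least 1 further probe set called in the same direction. Meg3 had 8 of 11 probe sets lower, with a range from -1.21 to 0.02. Ndn had 5 of 8 lower, and Peg3 had 3 of 5 lower, down to -1.66. The 2 Peg3 probe sets and the 3 Ndn probe sets that did not pass lay under the 25th percentile on all 6 arrays. Both Dlk1 probe sets were lower, at -0.83 and -1.21, as were 3 of 4 Rian probe sets, and both Asb4 probe sets were higher. For Kcnq1ot1, by contrast, 1 of 6 probe sets passed, and for Igf2, Mirg and Usp29 1 of 2 did. The Igf2 and Usp29 probe sets that did not pass also lay under the 25th percentile on all 6 arrays. So did 3 of the Kcnq1ot1 probe sets that did not pass.

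**Figure D3:**
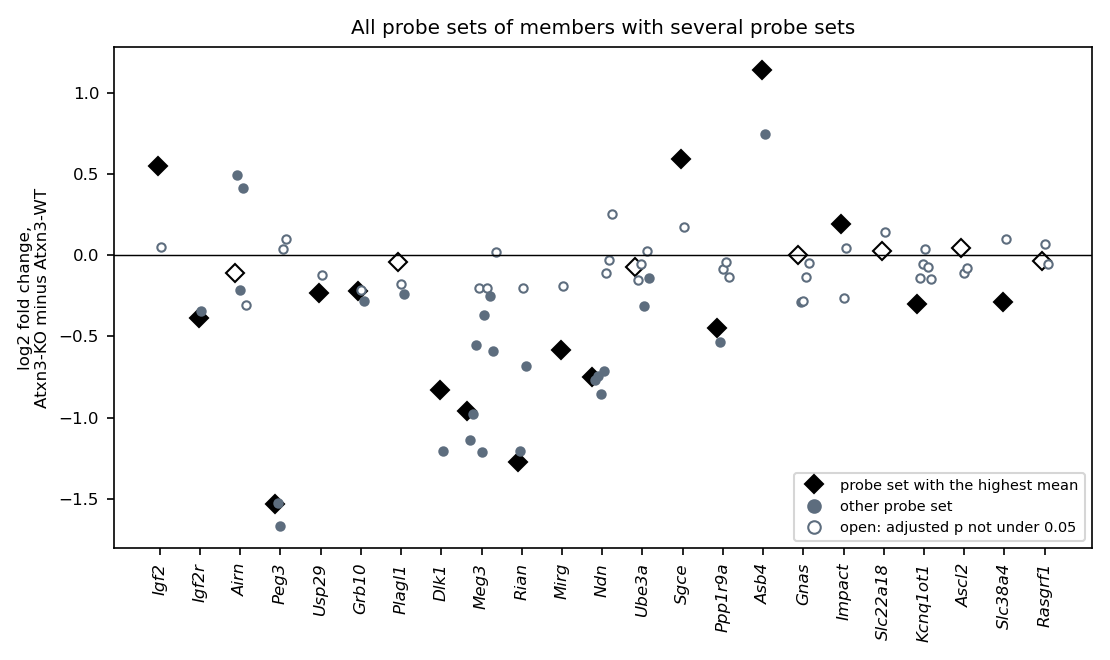
Log2 fold change (Atxn3-KO minus Atxn3-WT, y axis) of every probe set that names 1 of the 23 members with several probe sets. Diamonds are the probe sets with the highest mean, circles the others, and filled symbols passed an adjusted p of 0.05. Airn is the only member with calls in both directions, while Meg3, Rian, Ndn and Dlk1 have calls only below 0.

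The measured genes around each cluster were set beside its members, using RefSeq's gene order. Around Dlk1-Dio3, of the 10 nearest measured genes, 5 on each side, 1 was lower (Wars, a transfer RNA synthetase gene, at -0.27) and 0 were higher by limma, or 1 (Slc25a47) at an unadjusted p under 0.05. Their log2 fold changes ran from -0.27 to 0.25, and none reached the size of the 4 members, which began at -0.58. These 10 include Dio3os, the antisense RNA of Dio3 inside the imprinted domain, which gave -0.01 (adjusted p = 0.951). In a wider list of genes around the cluster, 3 of 17 measured genes were higher, up to Eml1 at 0.49, and Wars was the 1 that was lower. Atxn3 lies on the same chromosome as this cluster, chromosome 12. Of the 72 measured genes between Atxn3 and Dlk1, 10 were higher (13.9%, beside 17.1% of all genes) and 6 were lower (8.33%, beside 14.7%), with a median log2 fold change of 0.04. These 72 include the gene with the lowest log2 fold change of all 18193, Bcl11b, a zinc finger transcription factor gene named after its values were seen. Bcl11b had levels of 5.67, 5.65 and 5.56 in Atxn3-KO MEFs, against 10.36, 10.42 and 10.42 in Atxn3-WT MEFs, a log2 fold change of -4.77. The highest in this interval was Ifi27l2a, an interferon-inducible gene, at 1.41, and these were the only 2 of the 72 past the study's thresholds. Whether the targeted allele carries flanking chromosome from another strain was not tested.

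Around Peg3, 2 of 10 neighbours were higher and 1 was lower, with a range from -0.34 to 0.60. Around Peg10-Sgce, 7 of 14 measured neighbours were higher and 1 was lower, and around Rasgrf1, which did not pass itself, 5 of 10 were higher and 1 was lower, with the protease gene Ctsh at 1.40. The largest neighbour change was that of Tgm2, a transglutaminase gene beside Nnat-Blcap, at 2.25. Whether neighbour counts differ between clusters, or from the 17.1% higher and 14.7% lower among all genes, was not tested. Gng11, a G protein gamma subunit gene, had a log2 fold change of 1.35, and Pdk4, which encodes a kinase that restrains pyruvate dehydrogenase, had 1.27. Gng11 lies between Calcr and Sgce and Pdk4 lies next to Asb4, and both passed the study's thresholds. Other imprinted genes there, outside the set of 42, moved both ways. Tfpi2, a protease inhibitor gene, had levels of 7.36, 7.16 and 7.09 in Atxn3-KO MEFs, against 3.57, 3.39 and 3.44 in Atxn3-WT MEFs, where it was under the 25th percentile on every array. Pon3, a paraoxonase gene, had a log2 fold change of -1.41. Over all clusters, 27 of 165 neighbours were higher and 19 were lower, beside 17.1% and 14.7% of all genes, with a median of 0.02. The neighbours include transcripts inside clusters, such as Snhg14 and Ipw between members of Snrpn-Ube3a.

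**Figure D4:**
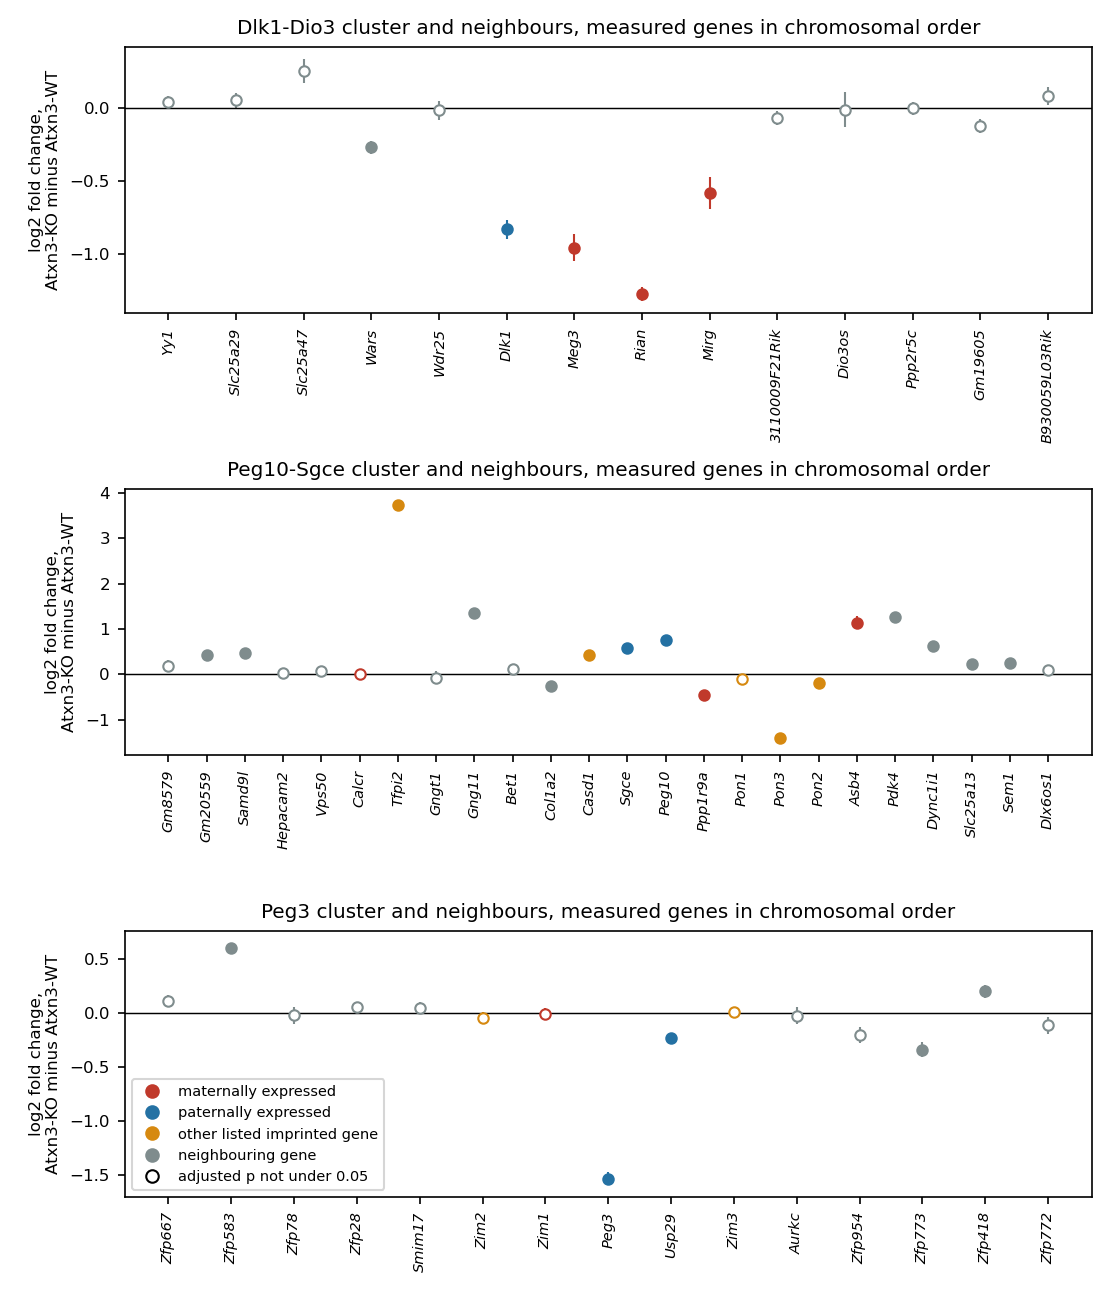
Log2 fold change (Atxn3-KO minus Atxn3-WT, y axis, each panel with its own scale) of the measured genes of 3 imprinted clusters and their neighbours, in chromosomal order, with bars for the standard error. Filled points passed an adjusted p of 0.05 and colour gives the kind of gene. The 4 Dlk1-Dio3 members and Peg3 stand below their flanking genes, which lie between -0.34 and 0.60, whereas genes both inside and outside the Peg10-Sgce cluster were higher. The highest point is Tfpi2, whose Atxn3-WT signal lay under the 25th percentile, so its fold is not exact.

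The RNAs of genes for proteins that set or keep imprints were measured on the same arrays, and the proteins were not. Of 27 measured regulators, 8 were lower (29.6%, beside 14.7% of all genes) and 2 were higher (7.41%, beside 17.1%), with a median log2 fold change of -0.04. The 2 that were higher were the histone demethylase gene Kdm1b, by 0.30, and the histone methyltransferase gene Ezh2, by 0.29. Dnmt3a, the DNA methyltransferase that lays down germline imprints, had levels of 8.98, 8.95 and 8.95 in Atxn3-KO MEFs, against 9.73, 9.60 and 9.71 in Atxn3-WT MEFs. The groups were separate, and its log2 fold change was -0.72 (adjusted p = 7.08e-05). Tet1 and Tet2, enzymes that oxidise methylated cytosine, had -0.60 and -0.44, and Setdb1, a histone H3 lysine methyltransferase recruited to imprinted regions, had -0.33. Of the genes for proteins that keep imprints in dividing cells, the RNA of Dnmt1 gave 0.07, that of Zfp57 -0.08 and that of Trim28 0.01. Their adjusted p from limma were 0.315, 0.32 and 0.935.

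Of 34 further imprinted genes outside the set, 8 were higher (23.5%, beside 17.1% of all genes) and 7 were lower (20.6%, beside 14.7%). Besides Tfpi2 and Pon3, 2 passed the study's thresholds. Dcn, which encodes the matrix proteoglycan decorin and is imprinted in the mouse placenta, had levels of 10.89, 10.92 and 10.84 in Atxn3-KO MEFs, against 9.10, 8.83 and 9.00 in Atxn3-WT MEFs (log2 fold change 1.91). Zdbf2, a paternally expressed zinc finger gene, had levels of 5.90, 5.90 and 6.14 in Atxn3-KO MEFs, against 7.03, 7.34 and 6.85 in Atxn3-WT MEFs (log2 fold change -1.10). In both genes the genotypes did not overlap, though the share of all genes without overlap was not counted. H13, whose intron holds Mcts2, was higher by 0.23, and Copg2, which overlaps the Mest locus, was higher by 0.29; both were named after their values were seen.

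The word searches covered every promoter window of the RefSeq table. TGCCGC, on either strand, lies in 11.61% of all windows. Of the 36 members with a window, 10 hold it in at least 1 window (27.8%), beside 13.05% of all 27025 genes with a window. These 10 are Igf2, Zim1, Mest, Grb10, Plagl1, Meg3, Snrpn, Calcr, Nnat and Mcts2. By direction they are mixed, with 4 lower (Mest, Grb10, Meg3 and Mcts2), 2 higher (Igf2 and Snrpn) and 4 that did not pass. CCATNTT, the core word of YY1, lies in 16.08% of all windows. It lies in a window of 7 of the 36 members (19.4%), beside 18.19% of all genes with a window. Of these 7, Grb10, Mkrn3 and Slc38a4 were lower and Igf2 was higher. Members often have several starts, so a gene with more windows has more chances to hold a word. TGCCGC also contains a CpG, and the 54 windows of members had a median of 13 CpG, beside 7 over all windows. The part of CpG content in the share of members with TGCCGC was not tested.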

How the data were processed

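The authors deposited log2 values for 6 Affymetrix mouse genome arrays, which their methods describe as normalised by RMA. RMA corrects background, makes the arrays' distributions alike and summarises each probe set, so a shift shared by most genes is not seen. RMA and limma are the tools in the submitters' processing notes, and their versions are not given in the sources used here. Samples were grouped by the genotype in the labels.

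Of 45101 probe sets, 64 controls were left out. limma 3.58.1 in R 4.3.3 fitted Atxn3-KO minus Atxn3-WT over the other 45037 with equal array weights, lmFit and eBayes, and Benjamini-Hochberg adjustment. A gene was called at an adjusted p under 0.05. The methods name a weighted linear model without its weights, so array weights were an alternative. Symbols came from the platform annotation, which can be old: 34945 probe sets name 1 gene, 932 name several and 9160 none. Of 18193 genes, 18145 matched the RefSeq table of GRCm38.p6, which was used for gene order and promoters. The array's own build was not used, and 6 of the 42 members had no promoter window. Levels were not compared between probe sets.

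Every member past the threshold is named with its values on each array, and the rest by level or range. Other genes are named for their large change in a list or their place beside a cluster, and Dnmt1, Zfp57, Trim28, H13 and Copg2 were named after their values were seen. The members and lists were chosen with earlier results of these data known. Groups of 3 arrays limit the precision. The fit was tested on simulated data. The alternatives were array weights, a replicate block, renormalisation, filters, another variance model, other probe set rules, thresholds and leaving out each array.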

Additional observations from a re-analysis of the deposited data

How the results depend on the processing

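The same-numbered arrays did not deviate together (correlations of their deviations from the group means of 0.02, -0.02 and -0.04), so the numbers do not pair the samples. With the replicate block, 5 members were higher, 14 were lower and 2 passed the study's thresholds; Mest, Impact and Kcnq1ot1 no longer passed (adjusted p = 0.0906, 0.0661 and 0.0769). Leaving out each array in turn gave 4 to 5 higher, 13 to 15 lower and 2 to 3 past the study's thresholds, the third being Meg3 without the third Atxn3-WT array (at -1.06). With a limit of 0.001 on the adjusted p and none on the fold, 3 were higher and 5 lower. The count past the study's thresholds was 1 with the mean over each gene's probe sets (Dlk1), 4 with probe sets without a suffix first (Peg3, Rian, Dlk1 and Meg3), 1 with limma's treat against 2-fold (Peg3), and 3 without probe sets under the median level and with eBayes trend and robust, where the third was Asb4, which was higher. Of the 22 called members, 15 kept their call at an adjusted p under 0.05 in every alternative fit or probe set rule in which they could be tested. The stricter thresholds are not part of this count. The other 7 were Mest, Impact, Snrpn, Kcnq1ot1, Mkrn3, Sgce and Slc38a4. The mean over probe sets ended the calls of Slc38a4 (-0.09) and Kcnq1ot1 (-0.11).

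Among members, only Impact changed sign after being called, to -0.0078 with the mean over probe sets. The other changes of sign were in members that had not passed. With array weights Calcr was -0.0059. With quantile normalisation once more, Zim1 was 0.0032 and Gnas -0.0142, and with arrays centred on their medians Zim1 was 0.0097. With the mean over probe sets, Airn was 0.0566, Gnas -0.148 (adjusted p = 0.039) and Ascl2 -0.0465. With probe sets without a suffix first, Gnas was -0.285 (adjusted p = 0.0341), Ascl2 -0.0751 and Rasgrf1 0.0714. Over the 6 fits without 1 array, the values that crossed 0 ran from -0.0220 to 0.0550 for Calcr, -0.0341 to 0.0420 for Zim1, -0.0103 to 0.0166 for Gnas, -0.0119 to 0.0342 for Tssc4, -0.0933 to 0.0213 for Magel2 and -0.0778 to 0.0313 for Rasgrf1. The causes were not tested. The filter at the median level left 26 members, since the other 12 had no probe set at or over that level. Allele-specific RNA and DNA methylation were not measured, so these values cannot say which parental copy changed.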
